A study of Homo sapiens with 17 samples.

Results

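RIGI, IFIH1, DHX58, MAVS, TLR3, ADAR and EIF2AK2 encode the cell's main machinery for sensing and editing double-stranded RNA, and were chosen by name for that role. They are 7 of the 62754 genes in the count tables, and all 7 were among the 19473 genes with enough counts to be tested. Their transcripts were read from 17 strand-specific libraries of poly(A) RNA, collected at day 7 from IMR90 ER:RAS cells, which are human lung fibroblasts carrying a retroviral fusion of oncogenic RAS to the ligand-binding part of an oestrogen receptor. Addition of 4-hydroxytamoxifen (4OHT) activates the fusion, and the cells enter senescence. Whether the line is a pool or 1 clone is not given in the sources used here. The groups were DMSO siNT (n = 5), with the 4OHT solvent and a non-targeting siRNA, 4OHT siNT (n = 6), with the oncogene on, and 4OHT siSMARCA4 (n = 6), with the oncogene on and siRNA against SMARCA4, a catalytic ATPase of SWI/SNF chromatin remodellers. The last group joins 3 libraries labelled siSMARCA4_2 and 3 labelled siSMARCA4_4, and siNT libraries are likewise numbered 2 or 4. Each siRNA was given a day ahead of 4OHT or DMSO. No library combined siSMARCA4 with DMSO.

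RIG-I (RIGI) and MDA5 (IFIH1) are cytosolic helicases that bind viral or self double-stranded RNA, and LGP2 (DHX58) is a related helicase without a signalling domain that modulates both. On binding RNA, RIG-I and MDA5 engage MAVS, an adaptor on mitochondria, which activates IRF3 and NF-kB and so interferon and inflammatory genes. TLR3 reads double-stranded RNA in endosomes and signals through another adaptor. ADAR edits adenosine to inosine in double-stranded RNA, chiefly in paired Alu repeats, and keeps self RNA from being read by MDA5. EIF2AK2 encodes PKR, a kinase that stops translation on binding double-stranded RNA. Several of these genes are themselves induced by interferon.

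Interferon acts on such genes through response elements in their promoters, and the sequences below are shown to place those letters in the sensors whose transcripts were measured. RefSeq promoter windows (GRCh38.p14, from 250 bases before to 50 after each listed start) held 6 of the 7 genes. They were searched on both strands for GAAANNGAAA, the core of an interferon-stimulated response element, and for the looser AANNGAAA, which lies within every match of the first. The first occurred in 3.57% of all 35116 windows and the second in 22.8%. Windows of 30 bases follow, 5′ to 3′ on the gene's strand, with the match in capitals; for TLR3 the match is on the other strand, and for RIGI, which held only the looser letters, 1 of its 3 matches is given. The matches begin 202 (RIGI), 21 (IFIH1), 4 (TLR3) and 6 (EIF2AK2) bases upstream of the start.
RIGI, chr9:32526380-32526409, minus strand: ggtgcggagggAAACGAAActagcccgagg
IFIH1, chr2:162318686-162318715, minus strand: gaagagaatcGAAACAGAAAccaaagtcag
TLR3, chr4:186069142-186069171, plus strand: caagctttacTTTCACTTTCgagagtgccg
EIF2AK2, chr2:37156967-37156996, minus strand: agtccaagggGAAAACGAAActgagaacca
IFIH1 held 3 matches of the first motif, and TLR3 and EIF2AK2 held 1 each. The single MAVS window and the 3 ADAR windows held neither run of letters. A match of letters is a description of the window only.

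Library totals ran from 39.1 to 68.98 M counts. All 8 fibroblast markers were detected in every library, with lowest levels from 5090 CPM for VIM (counts per 1000000 of the library, after TMM scaling) and 1223 CPM for COL1A1 down to 7.04 CPM for LUM and 6.2 CPM for DCN. The highest sums were 1.53 CPM for 4 epithelial and 0.150 CPM for 4 leukocyte markers. The sum of 3 endothelial markers was 0.798 to 1.83 CPM in DMSO siNT, 3.52 to 5.54 CPM in 4OHT siNT and 1.73 to 4.25 CPM in 4OHT siSMARCA4. The sum of the 8 fibroblast markers was 22851 to 27447 CPM in DMSO siNT, 13354 to 17455 in 4OHT siNT and 7496 to 10778 in 4OHT siSMARCA4. The part of these markers in the results was not tested. SMARCA4 itself averaged 268 ± 13.2 CPM (SD, n = 6) in 4OHT siNT and 88.1 ± 22.8 CPM (n = 6) in 4OHT siSMARCA4, with no overlap. Each label names its library by a number, 2 or 4, a replicate digit and V or VM (2-1V, for example), without saying what the number or the tag means. VM libraries made up all 6 of 4OHT siNT but 3 of 6 in 4OHT siSMARCA4 and 3 of 5 in DMSO siNT, and values within VM libraries are therefore given beside the calls of the 7 genes and the counts of each list. Within 4OHT siSMARCA4, SMARCA4 stood at 103, 127 and 82.7 CPM in the V libraries 2-3V, 4-2V and 4-3V. It was lower in the VM libraries 2-1VM, 2-3VM and 4-2VM, at 69.0, 78.3 and 68.4 CPM. Tag and remaining SMARCA4 are thus mixed in that group, and fits by tag cannot tell them apart.

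Per kilobase of annotated exon, the 7 genes differed widely in level. In 4OHT siNT the level was 21.1 ± 1.45 CPM per kb for ADAR (SD, n = 6), 11.2 ± 0.70 for MAVS, 6.16 ± 0.81 for EIF2AK2, 1.13 ± 0.06 for RIGI, 0.35 ± 0.05 for IFIH1, 0.15 ± 0.06 for DHX58 and 0.012 ± 0.0076 for TLR3. No neighbours in that order overlapped in 4OHT siNT or in 4OHT siSMARCA4. In DMSO siNT the order was the same, but ADAR overlapped MAVS, IFIH1 overlapped DHX58, and DHX58 (0.20 ± 0.09, n = 5) overlapped TLR3 (0.19 ± 0.12). The editor, the adaptor and the kinase thus stood above the receptors and DHX58 in every group. RIGI shares its counts with an overlapping gene, as given below, so its own level is uncertain.

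**Figure D1:**
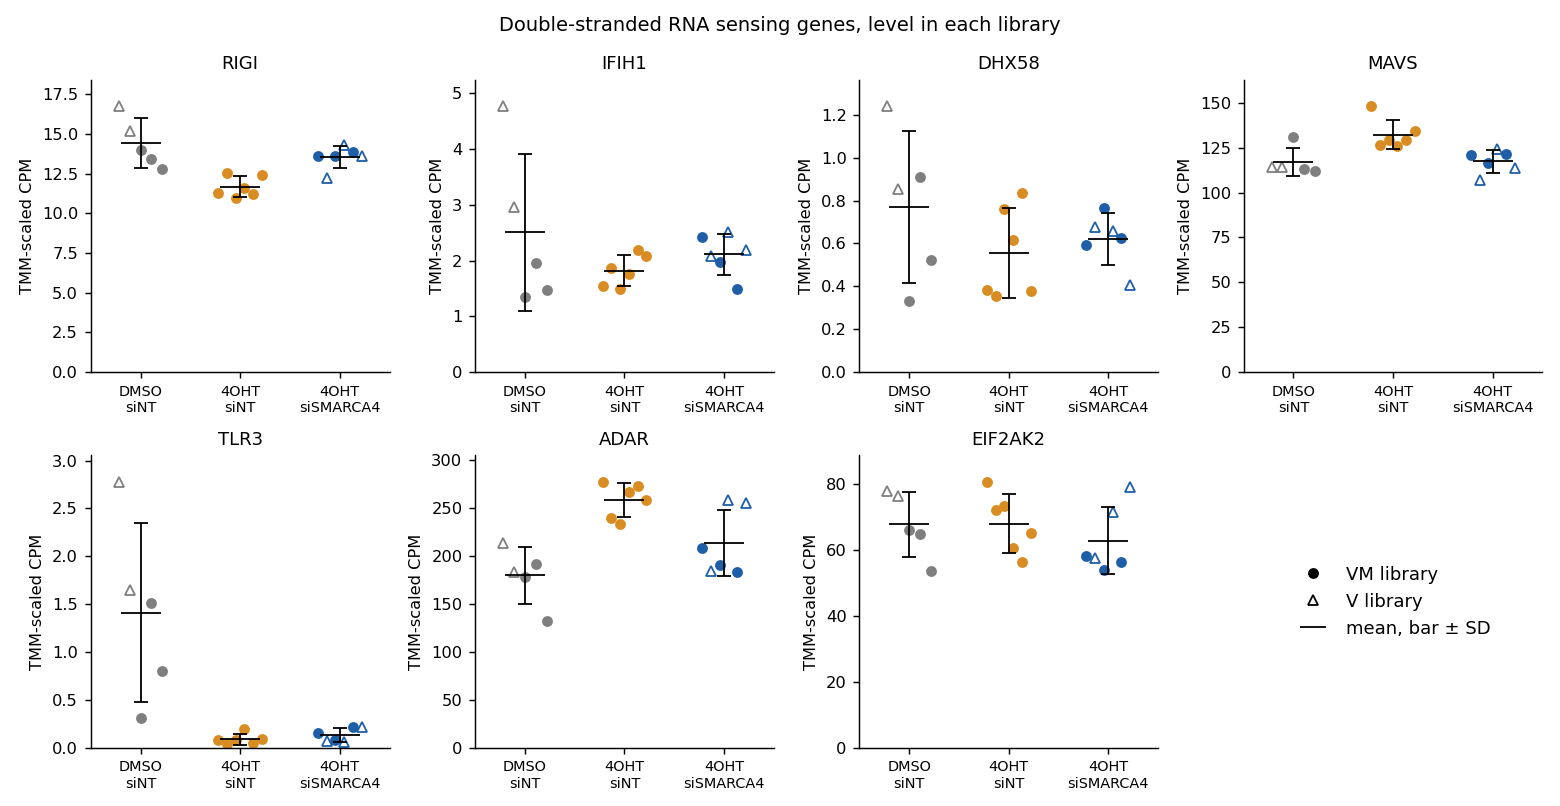
Level of each gene in TMM-scaled CPM (vertical axis, from 0, a separate scale per gene) in the 3 groups of libraries (horizontal axis); filled circles are VM and open triangles V libraries, and black marks the mean ± SD. TLR3 lies between 0.31 and 2.78 CPM in DMSO siNT and at or below 0.22 CPM in both 4OHT groups, while ADAR is higher in every 4OHT siNT library than in any DMSO siNT library.

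Turning on the oncogene was compared first (4OHT against DMSO within siNT). TLR3 and RIGI fell, ADAR and MAVS rose, and IFIH1, DHX58 and EIF2AK2 did not pass the test. A call is an adjusted p under 0.05 by edgeR's quasi-likelihood test, adjusted over all 19473 genes. These 4 calls among 7 genes stood beside 54.4% of all genes called, 27.0% higher and 27.4% lower, so the count itself did not set the genes apart. In bulk RNA, fewer cells expressing a gene and less RNA per cell cannot be told apart.

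TLR3 (ENSG00000164342; GRCh38 chr4:186068911-186088073, plus strand), the endosomal receptor, gave the greatest change of the 7. Its levels in the 5 DMSO siNT libraries were 2.78, 1.65, 0.31, 1.51 and 0.81 CPM, from 18 to 159 counts. In 4OHT siNT the lowest, median and highest were 0.036, 0.078 and 0.198 CPM, and all 6 libraries together held 26 counts. Every DMSO siNT library was above every 4OHT siNT library, although DMSO siNT itself spanned nearly an order of magnitude. The fitted log2 fold change was -3.97 (SE 0.52, adjusted p 2.71e-06 by edgeR), and mean CPM in 4OHT siNT was 6.35% of that in DMSO siNT. Within VM libraries the fold change was -3.31 (adjusted p 0.00011). The size of the drop rests on a handful of counts per senescent library and is known only to within the interval from -5.05 to -2.89.

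RIGI (ENSG00000107201; chr9:32455302-32526208, minus strand), the RIG-I receptor, stood at 16.7, 15.2, 14.02, 13.4 and 12.8 CPM in DMSO siNT. In 4OHT siNT its lowest, median and highest levels were 10.9, 11.5 and 12.5 CPM, below every DMSO siNT library. In log2 terms the fold change was -0.31 (SE 0.08, adjusted p 0.00246 by edgeR) and -0.23 within VM libraries (adjusted p 0.0236). In libraries numbered 4 alone it was -0.17 and the call was lost (adjusted p 0.276). RIGI lies almost wholly inside a longer gene on the same strand, ENSG00000288684 (chr9:32455323-32552603), and its share of their joint counts was 49.1% to 50.7% in every library. The counting mode shares ambiguous read pairs between overlapping features, so the levels of RIGI and of the longer gene cannot be told apart here. Their sum was 28.9 ± 3.11 CPM (n = 5) in DMSO siNT and 23.4 ± 1.23 CPM (n = 6) in 4OHT siNT, a log2 fold change of -0.30 (adjusted p 0.00147).

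ADAR (ENSG00000160710; chr1:154581695-154628013, minus strand), the editing enzyme, rose from 214, 184, 179, 191 and 132 CPM in DMSO siNT to between 234 and 277 CPM in 4OHT siNT, with a median of 262. The groups did not overlap, and the fitted log2 change was 0.52 (SE 0.12, adjusted p 0.000908 by edgeR) and 0.60 within VM libraries (adjusted p 0.000283), and it was 0.34 in libraries numbered 2 alone (adjusted p 0.0132). Gene counts do not separate the interferon-inducible long form of ADAR from the constitutive short form.

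MAVS (ENSG00000088888; chr20:3846799-3876123, plus strand), the mitochondrial adaptor, was 114, 114, 131, 113 and 112 CPM in DMSO siNT and ranged from 126 to 148 CPM in 4OHT siNT, with a median of 129. Only the DMSO siNT library at 131 CPM reached into the 4OHT range. The log2 fold change of 0.18 (SE 0.06, adjusted p 0.0253 by edgeR) was lost within VM libraries (0.13, adjusted p 0.140). It was also lost on leaving out 5 single libraries, namely DMSO siNT 2-1V, 2-2V or 4-2VM, or 4OHT siNT 2-1VM or 2-3VM, with adjusted p up to 0.103.

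IFIH1 (ENSG00000115267; chr2:162267074-162318684, minus strand), the MDA5 receptor, stood at 4.77, 2.97, 1.35, 1.96 and 1.48 CPM in DMSO siNT and between 1.49 and 2.18 CPM in 4OHT siNT, with a median of 1.81. The higher mean in DMSO siNT came from its V libraries, and the 3 VM libraries lay within or below the 4OHT range. The log2 fold change of -0.46 (95% interval -1.01 to 0.09, adjusted p 0.152 by edgeR) turned to 0.16 within VM libraries (adjusted p 0.535). Leaving out DMSO siNT 2-2VM brought it past the threshold (adjusted p 0.0378). DHX58 (ENSG00000108771; chr17:42101404-42112714, minus strand), which encodes LGP2, was 1.24, 0.86, 0.33, 0.91 and 0.52 CPM in DMSO siNT, and 0.36 to 0.84 CPM in 4OHT siNT. Its log2 fold change was -0.48 (95% interval -1.13 to 0.17, adjusted p 0.204 by edgeR), and it too passed without DMSO siNT 2-2VM (adjusted p 0.0453). Among DMSO siNT libraries, 2-1V held the highest level of 6 of the 7 genes, all but MAVS.

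EIF2AK2 (ENSG00000055332; chr2:37099210-37157522, minus strand), which encodes PKR, averaged 67.7 ± 9.76 CPM (n = 5) in DMSO siNT and 67.9 ± 8.94 CPM (n = 6) in 4OHT siNT. The 5 DMSO siNT libraries stood at 77.7, 76.2, 66.0, 64.9 and 53.6 CPM and the 4OHT siNT libraries spanned 56.4 to 80.5 CPM, with a median of 68.5. The groups lay over each other, and the log2 fold change was 0.01 (95% interval -0.24 to 0.26, adjusted p 0.973 by edgeR).

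**Figure D2:**
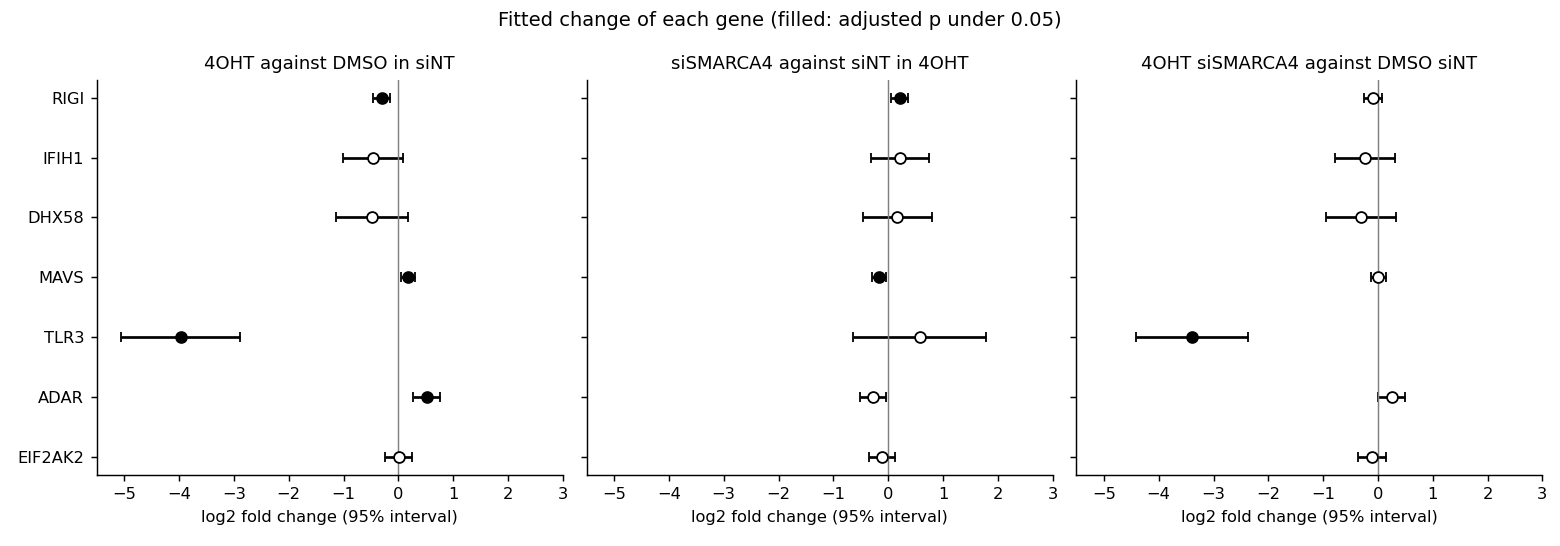
Fitted log2 fold change of each gene (horizontal axis, points) with its 95% interval (bars) in the 3 comparisons between groups; filled points passed an edgeR adjusted p under 0.05. TLR3 stands at -3.97 for 4OHT against DMSO and at -3.40 for 4OHT siSMARCA4 against DMSO siNT, and the intervals of all other genes lie between -1.13 and 0.80 in all 3 panels.

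Partial knockdown of SMARCA4 in senescent cells was compared next (siSMARCA4 against siNT within 4OHT). RIGI rose and MAVS fell, both by little, and the other 5 did not pass the test. Those 2 of 7 compare with 24.2% of all genes, 10.4% higher and 13.8% lower. Both calls were near the threshold. RIGI had adjusted p from 0.0313 to 0.0830 as each 4OHT library was left out in turn, and its call was lost in 9 of 12 such fits. For MAVS the range was 0.0370 to 0.120, and its call was lost in 11 of 12, all but that without siSMARCA4 4-2V.

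RIGI in 4OHT siSMARCA4 had a lowest level of 12.2, a median of 13.6 and a highest of 14.3 CPM. Library 2-3V, at 12.2 CPM, fell among the 4OHT siNT libraries, and the other 5 were above all of them. Its fitted log2 change was 0.21 (SE 0.07, adjusted p 0.0421 by edgeR), 0.24 within VM libraries (adjusted p 0.0292) and 0.20 for the sum with the longer gene (adjusted p 0.0383), while the longer gene by itself gave 0.19 and did not pass (adjusted p 0.0573). With the V or VM tag as a covariate it was 0.17 (adjusted p 0.127). The libraries whose single removal kept the call were 4OHT siNT 2-2VM and 4-3VM and siSMARCA4 2-3V.

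MAVS in 4OHT siSMARCA4 ranged from 107 to 125 CPM with a median of 119, so every siSMARCA4 library was below every 4OHT siNT library. Fitted, MAVS changed by -0.17 on the log2 scale (SE 0.06, adjusted p 0.0469 by edgeR), and -0.13 within VM libraries (adjusted p 0.181). The call was also lost with DESeq2 size factors (adjusted p 0.0538) and with the tag as a covariate (adjusted p 0.123).

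ADAR in 4OHT siSMARCA4 had a lowest level of 183, a median of 200 and a highest of 259 CPM. Libraries 4-2V and 4-3V stood at 259 and 255 CPM, among the 4OHT siNT libraries, and the other 4 were below all of these. On the log2 scale the change of ADAR was -0.27 (SE 0.11, adjusted p 0.0811 by edgeR). Within VM libraries it was -0.39 (adjusted p 0.0124) and with the tag as a covariate -0.41 (adjusted p 0.0113), and it also passed in libraries numbered 2 alone (adjusted p 0.0377), on leaving out 4-2V or 4-3V alone (adjusted p 0.0256 and 0.0369) and in a fit of only these 2 groups (adjusted p 0.0461).

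IFIH1, DHX58 and TLR3 stayed low. IFIH1 was 1.49 to 2.52 CPM with a median of 2.13, a log2 fold change of 0.21 (95% interval -0.31 to 0.74, adjusted p 0.585 by edgeR). DHX58 was 0.41 to 0.76 CPM with a median of 0.64 and gave 0.17 (95% interval -0.46 to 0.80, adjusted p 0.735 by edgeR). TLR3 was 0.059 to 0.221 CPM with a median of 0.118, and its 42 counts over the 6 libraries gave 0.57 (95% interval -0.64 to 1.79, adjusted p 0.518 by edgeR). For each of these 3 genes the groups overlapped, and changes within those intervals could not be told from none in these libraries.

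EIF2AK2 ranged from 53.8 to 79.0 CPM in 4OHT siSMARCA4 with a median of 57.9, and gave a log2 fold change of -0.11 (95% interval -0.35 to 0.12, adjusted p 0.510 by edgeR). The values differed between the label numbers. Among number 2 libraries all 3 siSMARCA4 values (53.8 to 58.2 CPM) were below the 3 siNT values (71.9 to 80.5 CPM), a log2 fold change of -0.41 (SE 0.12). Among number 4 libraries it was 0.19 (SE 0.12). The siNT libraries within 4OHT also differed by number, as those numbered 4 stood lower, at 60.5, 56.4 and 65.1 CPM. The number 2 siSMARCA4 values overlapped these. In DMSO siNT the values were 77.7, 76.2 and 66.0 CPM for number 2, and 64.9 and 53.6 CPM for number 4. The part of the siNT levels in the difference by number was not tested. Fitted on number 2 libraries alone, EIF2AK2 was called lower (log2 fold change -0.37, adjusted p 0.0108 by edgeR). The difference between the number 2 and number 4 effects was -0.60 (SE 0.16) and did not pass adjustment over all genes (adjusted p 0.0918 by edgeR). The tag is mixed with this contrast: the number 4 siSMARCA4 libraries stood at 71.6 and 79.0 CPM in the V libraries 4-2V and 4-3V and at 56.4 CPM in 4-2VM, those numbered 2 at 57.6 CPM in the V library 2-3V and at 58.2 and 53.8 CPM in the VM libraries, and all siNT libraries within 4OHT were VM. Between siSMARCA4 libraries numbered 2 and 4, 0 of the 7 genes were called by edgeR, beside 0.0462% of all genes (9 genes). DESeq2 also called 0 of the 7, with 216 of all genes called. The intervals of that difference were wide for the low genes, from -2.26 to 1.04 for TLR3, and narrower for MAVS, from -0.24 to 0.12.

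Set against DMSO siNT, cells with both the oncogene and siSMARCA4 differed in 1 gene of the 7. TLR3 was lower (log2 fold change -3.40, SE 0.49, adjusted p 8.19e-06 by edgeR; -2.53 within VM libraries, adjusted p 0.00374). Of all genes 55.1% were called in this comparison, 26.5% higher and 28.6% lower. For RIGI the log2 fold change was -0.09 (95% interval -0.25 to 0.07), for MAVS 0.00 (95% interval -0.13 to 0.14) and for ADAR 0.25 (95% interval 0.00 to 0.49, adjusted p 0.0797 by edgeR), which passed without DMSO siNT 2-1V (adjusted p 0.0367). This comparison shares its libraries with the other 2 and is given for its own values only.

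Repeat loci lying in introns of the 7 genes were also counted in the tables. RNA that covers the intron and transcripts of the repeat itself cannot be told apart there, and the tables do not give the strand of a repeat. Loci in an intron and in no other gene were summed per gene and tested over 7944 genes with enough such counts. Repeat counts in IFIH1 and EIF2AK2 introns were higher after siSMARCA4, and those in MAVS and ADAR introns did not pass. Of all genes 21.3% were called, 19.0% higher and 2.24% lower, with a median log2 fold change of 0.35. Summed intronic repeat counts of all genes went from 6291 ± 365 CPM (n = 6) to 8056 ± 765 CPM (n = 6). The CPM of this sum is taken over the library total without TMM scaling, unlike that of single genes. That sum was 7525 ± 753 CPM in the 3 VM and 8586 ± 229 CPM in the 3 V libraries of 4OHT siSMARCA4. In DMSO siNT the V libraries were the lowest and the highest of the group (5044 and 8701 CPM), around the VM range of 5324 to 6136 CPM. The 2 calls among 4 tested are read against that shift.

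In EIF2AK2 the intronic repeat counts had a range of 9 to 23 in the 4OHT siNT libraries and of 21 to 55 in 4OHT siSMARCA4, with 88 and 228 counts in all. The log2 fold change was 1.24 (SE 0.30, adjusted p 0.00468 by edgeR), 1.28 within VM libraries (adjusted p 0.00544) and 1.19 with the tag as a covariate (adjusted p 0.0142), and in CPM the groups overlapped in a single pair of libraries. The counts were spread over 57 loci, of which the 5 leading ones were Alu or L1 elements. Of the 57, 36 had more counts in siSMARCA4 than in siNT, against 11 with fewer. How many loci over all genes had more was not computed, so these counts have no background beside them. The leading locus, an AluYk3 at chr2:37115044-37115359 within the intron chr2:37114860-37119958, went from 7 to 27 counts. The exonic counts of EIF2AK2 showed no such change, as given above.

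In IFIH1 the intronic repeat counts were 56, 32, 11, 22 and 16 in the DMSO siNT libraries, 2 to 10 in 4OHT siNT and 12 to 24 in 4OHT siSMARCA4. In CPM every siSMARCA4 library was above every 4OHT siNT library. The log2 fold change was 1.32 for siSMARCA4 against siNT (SE 0.41, adjusted p 0.0225 by edgeR), which was lost on leaving out 4OHT siNT 2-1VM, 4-1VM or 4-3VM or siSMARCA4 4-3V (adjusted p up to 0.0596). It was also lost within VM libraries (1.26, adjusted p 0.0509) and with the tag as a covariate (0.92, adjusted p 0.146). For 4OHT against DMSO it was -2.07 (SE 0.41, adjusted p 0.000257 by edgeR), in a comparison where 27.0% of genes were called, 16.4% higher and 10.6% lower, and the median was 0.08. Within VM libraries that change was -1.30 (adjusted p 0.0255). A single intron, chr2:162307171-162310146, held 88.8% of these counts, and 1 MLT1A element in it (chr2:162308678-162310097) held 59.7%. With that element left out, the summed counts were 49 in DMSO siNT, 12 in 4OHT siNT and 47 in 4OHT siSMARCA4.

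Intronic repeat counts of MAVS totalled 41 in 4OHT siNT and 78 in 4OHT siSMARCA4 (log2 fold change 0.79, SE 0.39, adjusted p 0.140 by edgeR), and those of ADAR totalled 54 and 80 (0.44, SE 0.38, adjusted p 0.405 by edgeR). DHX58 and TLR3 had 5 and 6 such counts over all 17 libraries and were not tested. RIGI has no intron outside another gene. When its introns were taken with the longer gene allowed, which was decided after seeing the data, counts were 65, 95, 51, 52 and 83 in DMSO siNT, 38 to 78 in 4OHT siNT and 123 to 199 in 4OHT siSMARCA4. In CPM the mean was 1.22 ± 0.19 (n = 6) in 4OHT siNT and 2.99 ± 0.53 (n = 6) in 4OHT siSMARCA4, a ratio of 2.45, and the groups were apart (exact 2-sided permutation test, p = 0.00216, the smallest that 6 against 6 can give). Within VM libraries the ratio was 2.48, with 3 against 6 libraries (exact 2-sided permutation test, p = 0.0238, the smallest that 3 against 6 can give). Of 93 loci with counts, 74 had more in siSMARCA4 than in siNT and 12 had fewer. The leading one, an L1MDa at chr9:32460446-32461368, went from 78 to 231 counts. The share of all intronic repeat loci with more counts was not computed. RIGI was also not in the fit over all genes, so no share of genes called stands beside its ratio. Summed intronic repeat counts of all genes rose as well, as given above. For 4OHT against DMSO in siNT the groups overlapped (exact 2-sided permutation test, p = 0.823).

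**Figure D3:**
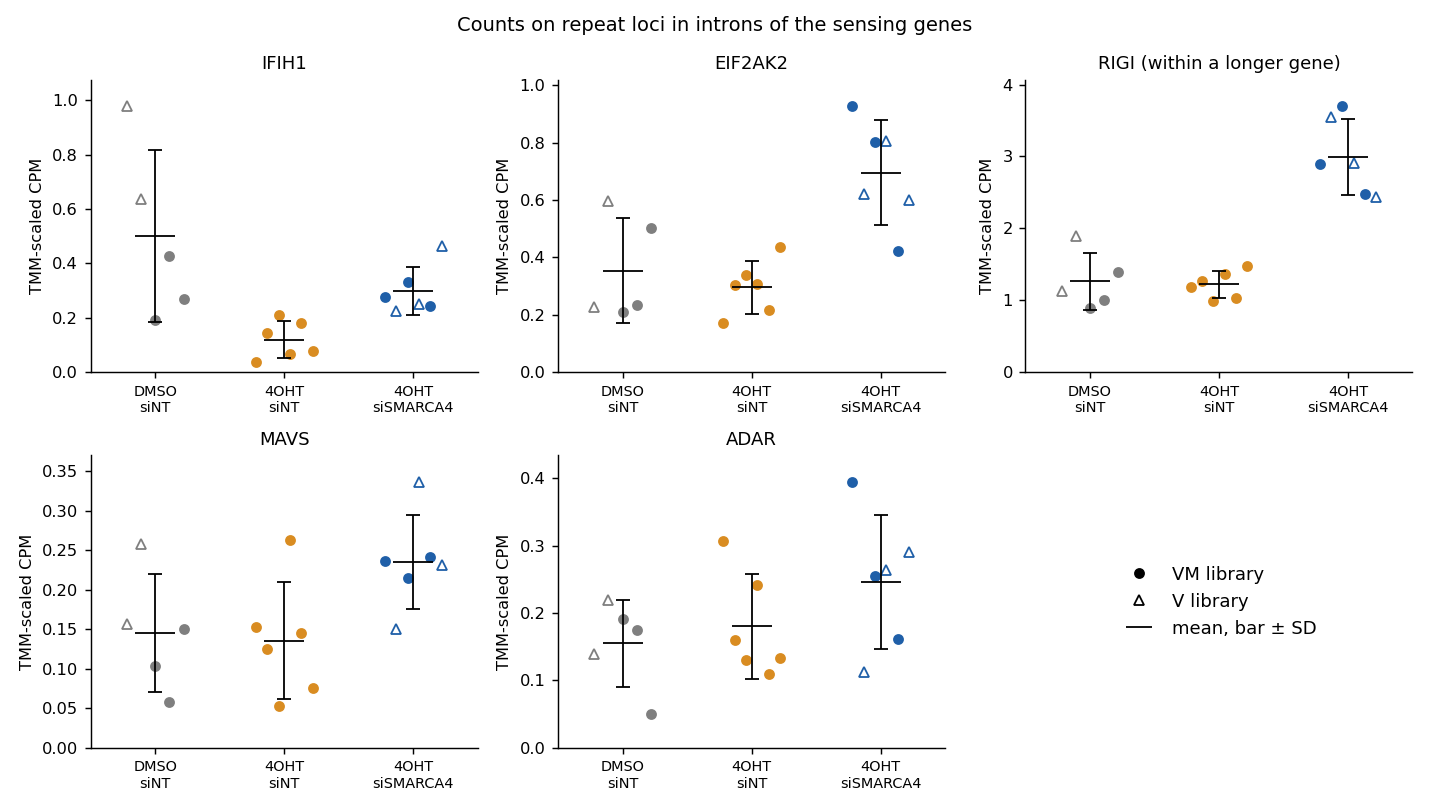
Counts on repeat loci in introns of 5 of the genes, in TMM-scaled CPM (vertical axis, from 0, a separate scale per gene) by group (horizontal axis), with VM libraries as filled circles, V libraries as open triangles and mean ± SD in black; DHX58 and TLR3 had too few counts. RIGI and IFIH1 show every siSMARCA4 library above every 4OHT siNT library, and for RIGI the introns lie inside a longer gene that was allowed.

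Partners of the sensors were followed in 7 lists, of which 116 genes were tested. After siSMARCA4, 16 were higher and 13 lower, 25.0% in all beside the 24.2% of all genes, and for 4OHT against DMSO 34 were higher and 30 lower, 55.2% beside 54.4%. As a set, the partners were thus called about as often as any gene, and the values below describe which ones. Within VM libraries, 5281 of all 19473 genes were called after siSMARCA4 and 9828 for 4OHT against DMSO, in either direction. The VM counts of each list stand beside those. Which of the named list genes kept their call within VM libraries is not reported here.

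Of 21 tested cofactors and regulators of the RIG-I-like receptors, 5 rose and 1 fell after siSMARCA4, with a median log2 fold change of 0.11 beside -0.02 for all genes. Within VM libraries 4 were higher and 3 lower. TRIM65, a ubiquitin ligase of MDA5, rose by 0.44 (SE 0.08), ATG12 and ATG5, whose conjugate restrains RIG-I signalling, by 0.43 (SE 0.09) and 0.30 (SE 0.10), and RNF135, the ligase that activates RIG-I, by 0.34 (SE 0.08). ITCH, a ligase that degrades MAVS, rose by 0.21 (SE 0.06). RNF125, a ligase that removes RIG-I and MDA5, had a log2 fold change of -1.0 (SE 0.33) at a level of 0.57 CPM in 4OHT siNT. With the oncogene on 3 rose and 8 fell (1 and 7 within VM libraries), with a median of -0.11. Those that fell most were DDX60, a helicase cofactor (-0.94, SE 0.23), NLRX1, a mitochondrial inhibitor of MAVS (-0.85, SE 0.14), CYLD, a deubiquitinase of RIG-I (-0.54, SE 0.10), and TKFC, an inhibitor of MDA5 (-0.53, SE 0.10).

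The signalling list downstream of MAVS moved in both directions after siSMARCA4, with 6 higher and 5 lower of 25. Of the paired kinases that activate IRF3, TBK1 rose by 0.39 (SE 0.09) and IKBKE had a log2 fold change of -0.61 (SE 0.12). TANK and AZI2, scaffolds of these kinases, rose by 0.26 (SE 0.07) and 0.26 (SE 0.07), and a further scaffold, TBKBP1, had -0.31 (SE 0.11). CHUK rose by 0.31 (SE 0.06) and IKBKB, the other catalytic subunit of the IkB kinase, had -0.29 (SE 0.08). NFKBIA, the NF-kB inhibitor, rose by 0.37 (SE 0.12). Within VM libraries the counts were 3 higher and 3 lower. Under 4OHT against DMSO 11 rose and 1 fell (11 and 3 within VM libraries), with a median of 0.10: TNFAIP3, a feedback inhibitor, by 2.47 (SE 0.27), NFKBIA by 1.74 (SE 0.13), IKBKE by 1.12 (SE 0.13) and TRAF3, a ligase bound by MAVS, by 1.01 (SE 0.08), while TRAF5 had -1.99 (SE 0.19).

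In the TLR3 branch, 10 genes were tested, of which 1 rose and 1 fell after siSMARCA4 and 2 rose and 3 fell for 4OHT against DMSO, the same counts as within VM libraries. UNC93B1, which carries endosomal Toll-like receptors from the endoplasmic reticulum, rose by 0.42 (SE 0.08) after siSMARCA4, and SCARA3, a class A scavenger receptor, had a log2 fold change of -0.97 (SE 0.14). Under 4OHT against DMSO the same genes had -1.12 (SE 0.09) and -1.57 (SE 0.14), and CNPY3, a chaperone of several Toll-like receptors, had -0.38 (SE 0.11). TICAM1, the adaptor of TLR3, rose by 0.63 (SE 0.09) and TAB3 by 0.42 (SE 0.11). For 4OHT against DMSO, these 2 higher and 3 lower genes of 10 stood beside 27.0% of all genes called higher and 27.4% lower. The count of calls thus did not set the branch apart, and the values describe single genes only.

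Among 18 other double-stranded RNA binding proteins, only DROSHA passed after siSMARCA4 (log2 fold change -0.38, SE 0.10), with a median of -0.02, and 1 gene was lower within VM libraries. With the oncogene on 8 fell and 2 rose (7 and 1 within VM libraries), with a median of -0.21. OAS3, an oligoadenylate synthetase, had -2.11 (SE 0.33) and NLRP1, an inflammasome sensor, -1.77 (SE 0.16), while STRBP rose by 0.59 (SE 0.11). Of 11 genes for disposal of double-stranded RNA, 1 rose and 2 fell after siSMARCA4 (0 and 3 within VM libraries): ABCE1, a ribosome recycling factor, by 0.31 (SE 0.09), SAMD9L, an antiviral translation inhibitor, with -0.86 (SE 0.22), and SKIC2, the helicase of the SKI complex, with -0.27 (SE 0.08). For 4OHT against DMSO 2 rose and 5 fell (2 and 4 within VM libraries), among them SAMD9 (-1.80, SE 0.18), TDRD7 (-0.94, SE 0.13) and SAMD9L (-0.89, SE 0.22).

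Of 16 genes of the integrated stress response, the pathway that PKR feeds, 2 rose and 1 fell after siSMARCA4 (2 and 2 within VM libraries). ATF4, its transcription factor, rose by 0.35 (SE 0.08), and of the sister kinases of PKR, EIF2AK3 (PERK) rose by 0.31 (SE 0.09) and EIF2AK4 (GCN2) had -0.45 (SE 0.08). Under 4OHT against DMSO 7 rose and 2 fell, the same counts as within VM libraries, among them TRIB3 by 1.63 (SE 0.19), DDIT3 by 0.88 (SE 0.15) and CHAC1 by 0.71 (SE 0.12), with ASNS, also a target of ATF4, at -0.82 (SE 0.21). Of 18 tested genes for interferon output and feedback, 1 rose and 2 fell after siSMARCA4, or 2 and 4 within VM libraries. CXCL10, a chemokine, rose by 2.38 (SE 0.31), and TYK2, a receptor-bound kinase, had -0.29 (SE 0.09). IFNB1, IFNL1, IFNL2, IFNL3 and CCL5 had too few counts to be tested. For 4OHT against DMSO 7 rose and 4 fell (9 and 4 within VM libraries): CXCL10 rose by 4.05 (SE 0.41), whereas IFIT2 and IFIT1, direct targets of IRF3 and interferon, had -3.85 (SE 0.24) and -3.31 (SE 0.35), and SOCS1 -1.87 (SE 0.24). All values in these lists are log2 fold changes with an edgeR adjusted p under 0.05.

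**Figure D4:**
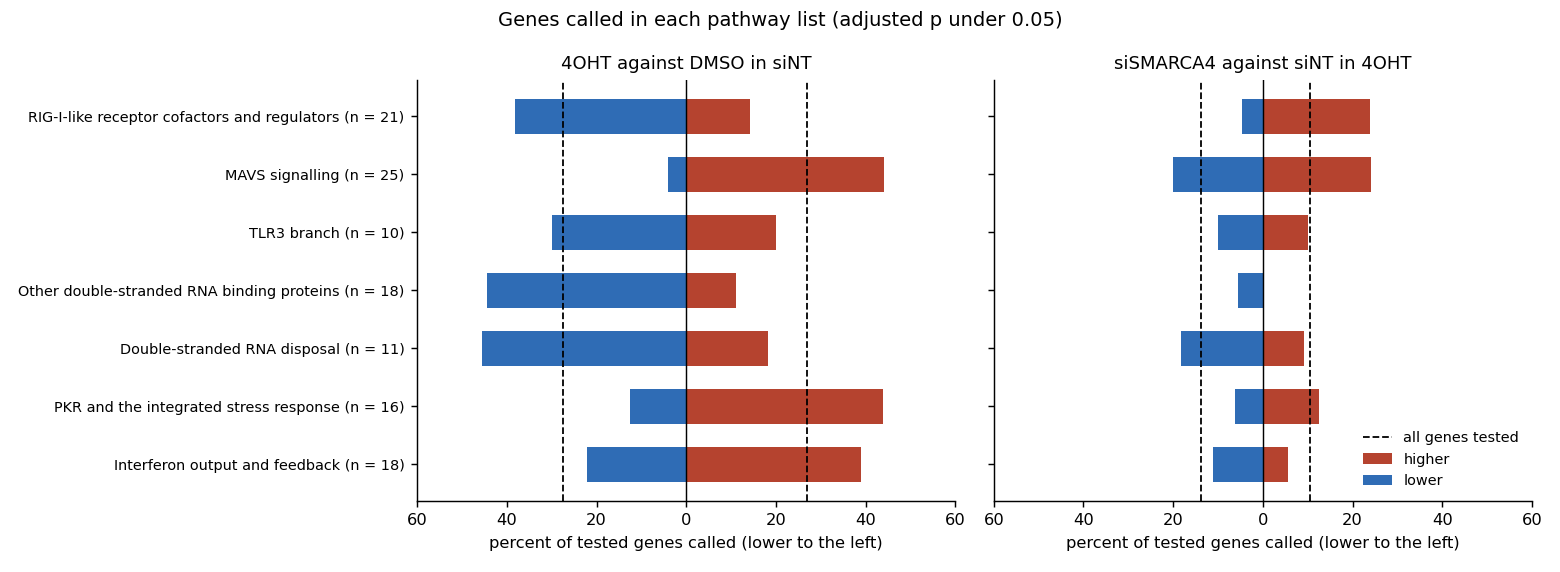
Percent of the tested genes of each list that were called higher (red, to the right) or lower (blue, to the left) at an edgeR adjusted p under 0.05, for 4OHT against DMSO and for siSMARCA4 against siNT; dashed lines are the percent of all genes called, 27.0 and 27.4 on the left, 10.4 and 13.8 on the right. The MAVS signalling list has 11 of 25 genes higher and 1 lower for 4OHT against DMSO.

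The variation among libraries within groups was described last, from log2 CPM centred on each group's mean over all 17 libraries. Among the 7 genes the highest correlations were 0.70 between RIGI and IFIH1 and 0.68 between ADAR and EIF2AK2, and the lowest was -0.45 between DHX58 and MAVS. Across all tested genes with a symbol, the patterns most like that of ADAR were VPS8, HEATR5B and RBFOX2, each at 0.97, and for EIF2AK2 they were IREB2 (0.96), APPL1 (0.95) and SEL1L (0.95). For IFIH1 they were RGS2 (0.92), PDGFRA (0.92) and RASL12 (0.91), and for RIGI CNN3-DT (0.87), LONRF1 (0.86) and CDKL1 (0.84). TLR3 was nearest SUCLG2, APH1B and FLVCR2 (each 0.84), DHX58 nearest IMPA2 (0.82), RPSAP70 (0.79) and CCDC171 (0.77), and MAVS nearest KCTD20 (0.77), NIPA1 (0.77) and PLXNB1 (0.75). These are Pearson correlations over libraries that differ in depth and in the V or VM tag, and they were picked as the highest among all genes.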

How the data were processed

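Values were read from 17 deposited tables of expected counts, in which the authors gave an unnormalised estimate of read pairs for every gene and every repeat locus, rounded to integers. Per the submitters' notes and the study's methods, reads were trimmed (Cutadapt 4.7), aligned to GRCh38 (HISAT2 2.2.1, up to 100 alignments per pair) and counted with TElocal in reverse-stranded multi-mapping mode over Ensembl release 100 genes and RepeatMasker loci. The multi-mapping mode shares pairs among positions, so overlapping genes and repeats receive estimates.

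Genes and summed repeat subfamilies were kept by edgeR's filterByExpr (minimum count 10, minimum total count 15), scaled by TMM and tested with a quasi-likelihood fit of 1 term per group over all libraries (edgeR 4.0.16, R 4.3.3), with Benjamini-Hochberg adjustment over genes. DESeq2 1.42.0 was an alternative. The fit was tested on simulated data for siSMARCA4 against siNT: of 100 genes planted at a log2 change of 0.5 among 19473, 34 were called, of 100 at 1 it called 59, and 5 of the unplanted. Only the planted genes changed there, whereas 4703 genes were called in the data. The adjustment over all genes therefore differed, and these rates do not give the sensitivity of the real fit. Positions and introns came from GENCODE 44 on GRCh38, a later annotation than that of the counting. Log2 CPM used a prior count of 2. Permutation tests used scipy 1.17.1, and figures matplotlib 3.10.9 (Python 3.11.15).

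Groups came from the labels alone. Nothing in the labels says that libraries of a group came from separate cultures, so p-values measure only the spread between these libraries, which may be technical. No pair of replicates agreed within sampling noise (lowest chi-square per degree of freedom 4.68). The members, lists and tests were chosen with earlier results of these data known. Named genes are all 7 genes, SMARCA4, the called genes of each list (at least the 4 with the largest change per comparison), and the 3 genes most correlated with each of the 7. Some list genes that this rule names are counted but not reported here. Library totals of 39.1 to 68.98 M leave TLR3 with 2 to 11 counts in each 4OHT library.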

Additional observations from a re-analysis of the deposited data

Results flagged for a closer look

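In 39 groups of 5 or 6 libraries, 4 held 1 library set far from the others, its gap to the nearest being a large part of the group's range; chance would set apart about 5% of groups. RIGI was 12.2 CPM in siSMARCA4 2-3V, below the other 5 siSMARCA4 libraries (gap over range 0.666). MAVS was 131 CPM in DMSO siNT 2-2VM (0.884) and 148 CPM in 4OHT siNT 2-1VM (0.635), both above the rest of their group. TLR3 was 0.198 CPM in 4OHT siNT 4-1VM (0.635), which is 9 counts. The calls without each of these libraries are among those given in the report, and the cause was not tested.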

How the results depend on the processing

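Between siSMARCA4 and siNT within 4OHT, where 2 of the 7 genes were called, the number became 1 with DESeq2 size factors, 1 when repeat subfamilies were left out of the fit, 1 with a replicate block, 1 with the V or VM tag as a covariate (ADAR gained, RIGI and MAVS lost), 0 with no filter on low counts, 0 in number 4 libraries alone, and 0 to 2 as each library was left out. For 4OHT against DMSO, with 4 called, number 4 libraries alone gave 2 and leaving out 1 library gave 3 to 6. For 4OHT siSMARCA4 against DMSO siNT, with 1 called, the replicate block gave 2 (ADAR added, adjusted p 0.0397), number 2 libraries alone 2, and leaving out 1 library 1 to 2. The gene added in number 2 libraries alone was EIF2AK2 (log2 fold change -0.37, adjusted p 0.00322 by edgeR). Its level in DMSO siNT also differed by number, as given in the report. Of the intronic repeat counts tested, 1 to 2 genes were called between siSMARCA4 and siNT as libraries were left out, and 1 (EIF2AK2) both within VM libraries and with the tag as a covariate, fits chosen after seeing the data. The labels do not say whether libraries with the same replicate digit were paired. Deviations of same-digit libraries of 4OHT siNT and DMSO siNT correlated at 0.35, -0.15 and 0.57 for digits 1, 2 and 3. In the comparisons with siSMARCA4 they correlated between -0.09 and 0.07. Pairing is thus not settled by these values. Under the replicate block the call of MAVS between siSMARCA4 and siNT was lost (log2 fold change -0.16, adjusted p 0.0761 by edgeR). TLR3 and ADAR kept their calls for 4OHT against DMSO under all 22 alternatives, at log2 fold changes of -4.66 to -3.31 and 0.34 to 0.70, and RIGI, at -0.44 to -0.17, lost it in number 4 libraries alone (adjusted p 0.276). DESeq2 itself gave 0.22 for RIGI between siSMARCA4 and siNT (adjusted p 0.0181).

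Directions that turned all belonged to values not called. For 4OHT against DMSO, EIF2AK2 was -0.0040 with DESeq2 size factors, -0.0040 in DESeq2, -0.024 with no filter, -0.0022 in number 2 libraries and -0.067 to 0.054 as libraries were left out, and IFIH1 was 0.16 in VM and 0.22 in number 4 libraries. Between siSMARCA4 and siNT, IFIH1 was -0.12 with the tag as a covariate, and in number 4 libraries DHX58 was -0.12 and EIF2AK2 0.18. For 4OHT siSMARCA4 against DMSO siNT, VM libraries gave RIGI 0.019, IFIH1 0.29, DHX58 0.16 and MAVS -0.0024, number 4 libraries gave RIGI 0.069, IFIH1 0.25 and EIF2AK2 0.20, MAVS was -0.061 in number 2 libraries and -0.010 in a fit of those groups alone, and leaving out 1 library gave IFIH1 -0.42 to 0.11 and MAVS -0.028 to 0.030. Between numbers 2 and 4, IFIH1 was -0.050 with the replicate block and -0.12 to 0.26 as libraries were left out. Intronic repeat counts for 4OHT against DMSO ranged on leaving out 1 library from -0.36 to 0.20 for MAVS (0.36 within VM libraries and 0.11 with the tag as a covariate), -0.0016 to 0.38 for ADAR and -0.41 to 0.0011 for EIF2AK2. Of the other values per gene and alternative, 580 kept direction and side of the threshold, 50 fell below it and 12 rose past it. The causes of these changes were not tested. TLR3 had 2 to 11 counts per 4OHT library, and neither depth nor spread between libraries was tested as the limit on its interval.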
